A study of Homo sapiens with 15 samples.

Results

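Day 3 and day 1 were compared in H9, an established line of human embryonic stem cells, during differentiation to definitive endoderm, the germ layer that lines the gut and forms liver and pancreas. The comparison used 6 of the 15 bulk RNA-seq libraries, replicates 1, 2 and 4 of each of these days, and all 17401 genes with adequate counts. Day 3 cells had received activin A, which signals through the same receptors as Nodal, together with the GSK3 inhibitor CHIR99021 on the first day and activin A alone afterwards, in Advanced RPMI medium. Day 1 cells were taken at the end of the period with CHIR99021, an activator of Wnt signalling. Days 2 and 4 of the same protocol and undifferentiated cells in E8 medium (day 0), with 3 libraries each, served to sort the changes. Time and the removal of CHIR99021 cannot be told apart. All libraries came from a single cell line, and no label says that the replicates were separate cultures, so p-values measure only the spread between these samples, which may be technical.

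In the embryo, epiblast cells enter the primitive streak under Wnt and Nodal signals, pass through an epithelial to mesenchymal transition and leave it as mesoderm or endoderm. Brachyury, encoded by T, and the CDX factors mark the streak and its posterior end, and the transcription factors SOX17 and FOXA2 are needed for definitive endoderm. In culture, a pulse of Wnt activation gives streak-like cells, and sustained activin favours endoderm.

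The 2 days differed in evenness. Total counts were 145857940, 65534538 and 86622154 in day 3 replicates 1, 2 and 4, and 72266892, 69264028 and 100685830 in day 1 replicates 1, 2 and 4. Over all genes, the chi-square per degree of freedom between 2 libraries of a day was 248 to 624 on day 3 and 42.9 to 96.5 on day 1, where counting noise alone gives values near 1. Ribosomal protein genes took 2.07%, 2.32% and 5.88% of counts on day 3, against 3.81%, 2.45% and 3.78% on day 1. Values are given below in CPM, counts normalised to library size with TMM scaling, always for replicates 1, 2 and 4 in that order. In replicate 1 of day 3, several streak and endoderm regulators stood far below the other day 3 libraries. EOMES, a T-box factor needed for endoderm, had 60.3, 452 and 326 CPM on day 3, against 250.5, 252 and 186 CPM on day 1. GSC, an organiser homeobox gene, had 1.64, 39.1 and 91.4 CPM on day 3, against 49.6, 26.9 and 46.2 CPM on day 1. In both genes the day 3 values lay on either side of the day 1 values, and neither passed the test. Replicate 1 was also the highest of day 3 for the lateral mesoderm factor HAND1, with 262, 47.1 and 107 CPM on day 3, against 17.4, 14.8 and 8.29 CPM on day 1. Replicate 2 was the highest for CER1, a secreted inhibitor of Nodal, BMP and Wnt, with 478, 4478 and 1867 CPM on day 3, against 382, 409.5 and 226 CPM on day 1. Replicate 4 kept the most POU5F1, the pluripotency factor OCT4, with 25.2, 22.5 and 199 CPM on day 3, against 480.5, 324 and 430.2 CPM on day 1. POU5F1 did not pass the test (adjusted p = 0.0808), although all its day 3 values were below those of day 1, and it passed without replicate 4 of day 3 (adjusted p = 0.00766). Results that 1 library decides are named as such where they occur.

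**Figure D1:**
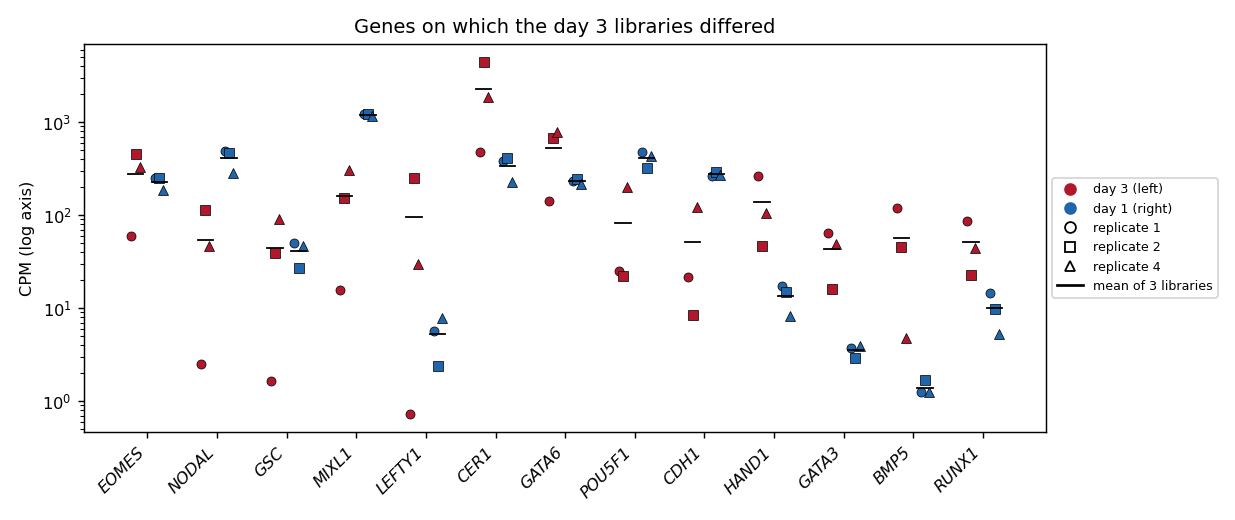
Levels in CPM (log axis) of genes that differed between the 3 day 3 libraries, one point per library with day 3 left of day 1 and a bar at the mean of 3 libraries. Replicate 1 of day 3 is lowest for EOMES, GSC and NODAL and highest for HAND1, whereas the day 1 libraries lie close together.

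The markers of the 2 stages moved with the labels of the days. T had 3.804, 0.961 and 4.98 CPM on day 3, against 462, 364 and 542 CPM on day 1, a log2 fold change of −7.13 (SE 0.69, adjusted p = 8.47e-06; here and below edgeR's quasi-likelihood F-test with Benjamini-Hochberg adjustment over all genes tested). Values in brackets below are log2 fold changes, day 3 minus day 1, and increases are given on the same scale. CDX2, a posterior homeobox factor, had 1.97, 0.0601 and 0.388 CPM on day 3, against 98.3, 75.6 and 52.8 CPM on day 1 (−6.51, SE 1.17, adjusted p = 0.00124). Both were low in every day 3 library and high in every day 1 library. SOX17 had 121, 103 and 224 CPM on day 3, against 0.277, 0.675 and 1.01 CPM on day 1 (7.82, SE 0.61, adjusted p = 1.79e-06). FOXA2 had 252, 116 and 48.2 CPM on day 3, against 1.91, 2.497 and 1.503 CPM on day 1 (6.14, SE 0.66, adjusted p = 2.14e-05). SOX17 and FOXA2 were high in all day 3 libraries, with no overlap with day 1. FOXA2 had 14.9, 9.14 and 7.52 CPM on day 0, above every day 1 library, and so had dipped on day 1. Its log2 fold change of day 4 minus day 0 was 3.90. In these bulk samples, fewer cells of a type and less RNA per cell cannot be told apart.

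**Figure D2:**
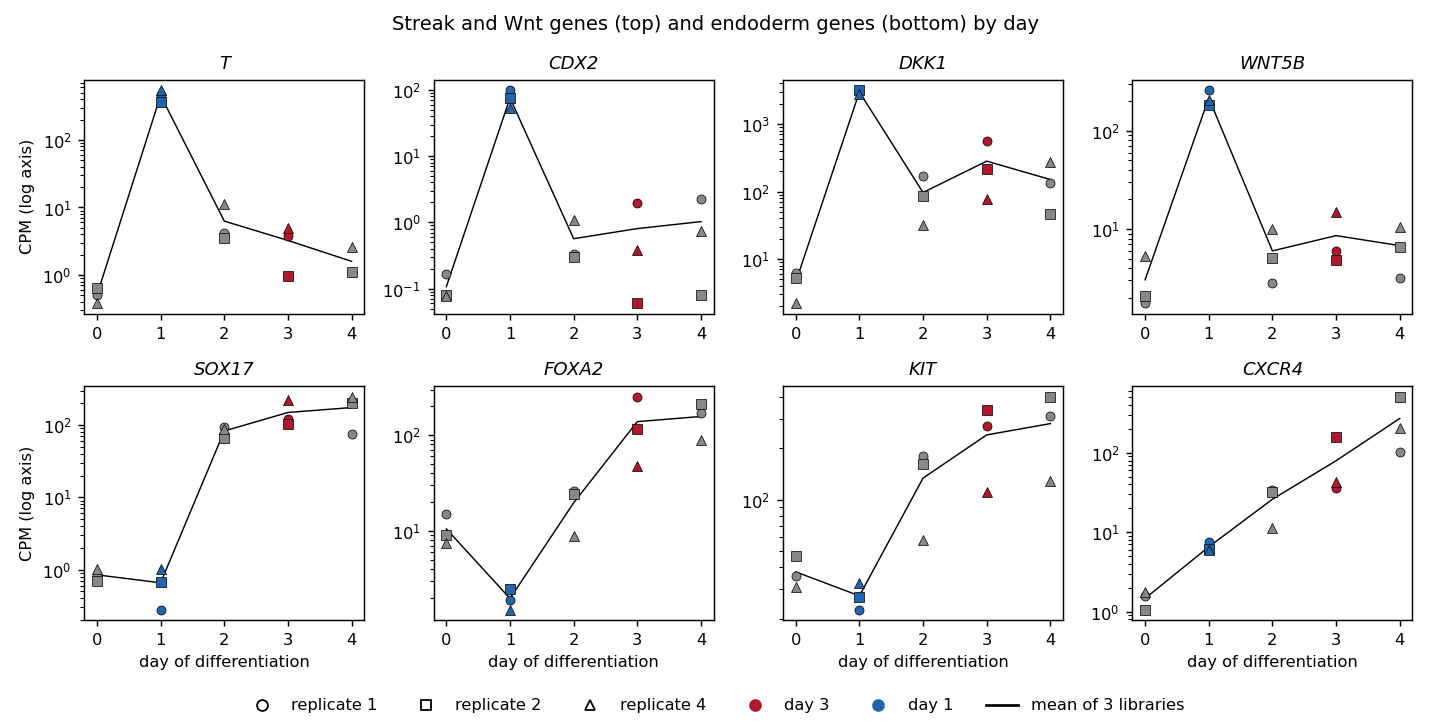
Levels in CPM (log axis) of streak and endoderm genes by day of differentiation, with one point per library and a line through the mean of 3 libraries. T and CDX2 peak on day 1 and are low from day 2 on, whereas SOX17 and FOXA2 are low on day 1 and high on days 3 and 4.

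Of the 17401 genes tested, 2071 were higher on day 3 (11.9%) and 1591 were lower (9.14%). The median log2 fold change was 2.10 among the genes that were higher and −1.63 among those that were lower. Day 3 and day 1 libraries did not overlap in 2000 of the higher and 1585 of the lower genes, against 20.7% of all genes tested with every day 3 library above day 1 and 22.6% with every day 3 library below. Both counts rested on all 6 libraries. The higher genes numbered 1246 without replicate 1 of day 1 and 1375 without replicate 2 of day 1. The lower genes numbered 896 and 1059 without replicate 1 or 2 of day 3, and 837, 948 and 981 without replicate 1, 2 or 4 of day 1.

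The lower genes were sorted by their levels on other days. A total of 408 had been raised on day 1, with every day 1 library above every day 0 library, which held for 15.8% of all genes tested. Of these, 391 also had every day 4 library below every day 1 library (95.8%; 22.5% of all genes tested), and these are called lasting losses of the streak programme here. This sorting used the libraries of days 0, 1 and 4, so the shares are a description. In 353 of the 391, every day 2 library was already below every day 1 library (18.5% of all genes tested), and in these the drop was present on day 2. The same day 1 libraries had selected the genes, so this share is a description too. Between day 4 and day 0, both used in the sorting, 54 of the 391 were called higher, 262 did not pass the test and 75 were called lower. The remaining 1183 lower genes had not been raised on day 1, and they include genes that stem cells already carried. They numbered 598 and 762 without replicate 1 or 2 of day 3, and 572, 638 and 622 without replicate 1, 2 or 4 of day 1.

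The higher genes fell into 2 main classes by the comparison of day 4 with day 0, which shares no library with day 3 against day 1. On day 4, 1377 of the 2071 were above day 0 (18% of all genes tested were), and these are called endoderm gains here, a name that means only a level above stem cells on day 4. A further 663 did not pass between day 4 and day 0 (65.8% of all genes tested), and 31 were lower on day 4 than on day 0 (16.2%). Among these genes without a called increase over stem cells, 373 had every day 1 library below every day 0 library (14.1% of all genes tested). These had dipped on day 1 and were higher again on day 3, but not always back at the stem cell level. SOX2, for example, averaged 201 CPM on day 0, 1.15 CPM on day 1 and 6.53 CPM on day 3. Low day 1 levels helped to select these genes, so the share is a description. In 1557 of the 2071, every day 2 library was already above every day 1 library (17.2% of all genes tested). This comparison reuses the day 1 libraries that selected the genes, so a larger share than over all genes is built in. Genes not called between day 4 and day 0 numbered 396 without replicate 1 of day 3, and 297, 358 and 370 without replicate 1, 2 or 4 of day 1, and those called lower numbered 15 without replicate 1 or replicate 2 of day 1. The count of lasting losses ran from 263 to 357 and that of endoderm gains from 934 to 1386 when each of the 6 libraries was left out in turn.

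**Figure D3:**
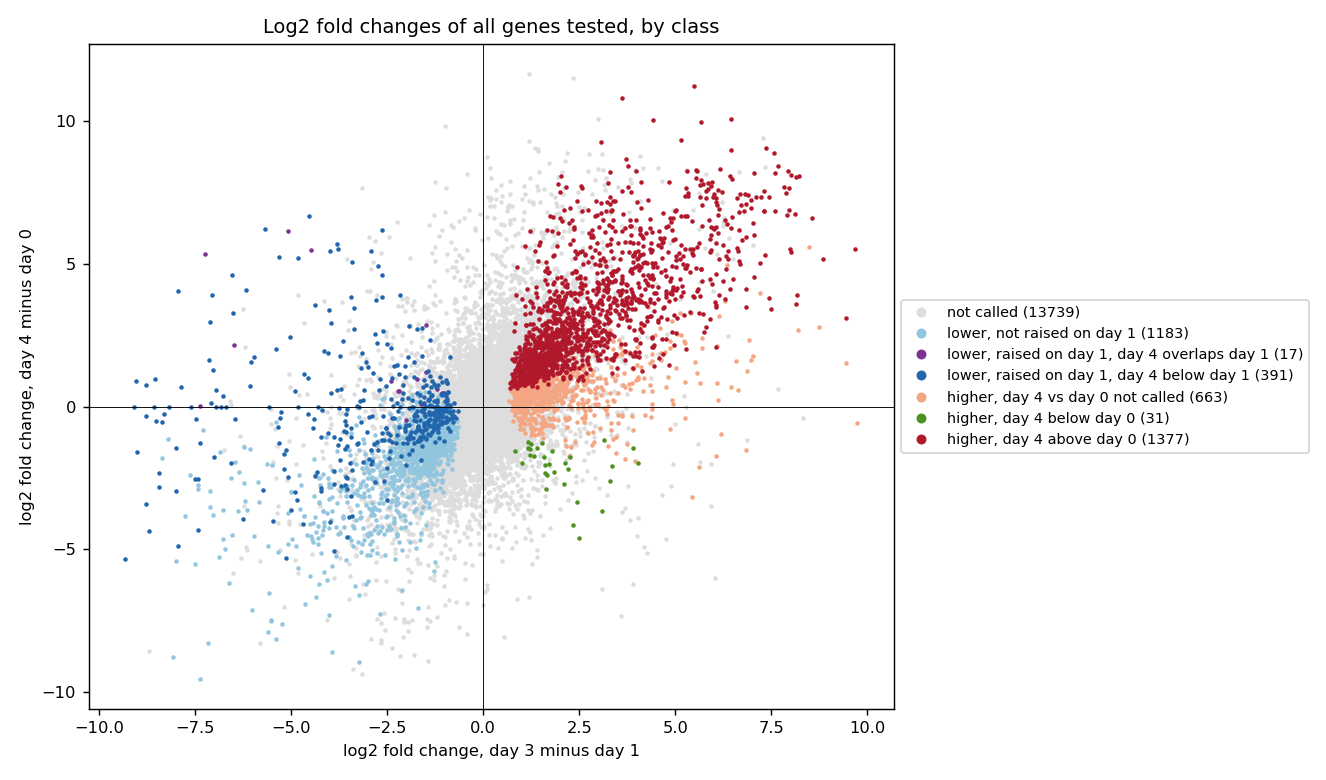
Log2 fold change of day 3 minus day 1 (x axis) and of day 4 minus day 0 (y axis) for the genes tested, coloured by class. The class rules place the endoderm gains upper right and the losses left of zero; the lasting losses lie above and below the line of no difference between day 4 and stem cells.

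Streak regulators were among the losses. Of 23 streak genes in the list used here, 10 fell and 3 rose on day 3, with 1 higher without any single library but replicate 1 of day 3. The median log2 fold change of the list was −2.62, against 0.00 over all genes tested. Of all genes tested 11.9% rose and 9.14% fell, the shares to set beside the list counts here and below. Of the 10 streak genes that fell, 8 were lasting losses. Of all 1591 lower genes, 391 were, the share to set beside such counts here and below. The caudal factor CDX1 had 0.149, 0.1802 and 0.5097 CPM on day 3, against 120.5, 87.2 and 66.96 CPM on day 1 (−8.36, SE 0.76, adjusted p = 5.02e-06). MSGN1, a factor of presomitic mesoderm, had 0.0544, 0 and 0.0728 CPM on day 3, against 23.6, 24.2 and 25.6 CPM on day 1 (−9.04, adjusted p = 4.08e-05), and a level of 0 in replicate 2 of day 3 allows up to 0.0451 CPM, the value of 3 counts. Every day 3 library of both genes lay below every day 1 library. FGF4, a growth factor ligand of the streak, had 0.217, 0.03003 and 1.48 CPM on day 3, against 28.9, 19.3 and 21.2 CPM on day 1 (−5.33, adjusted p = 0.00252). The homeobox gene GBX2 fell as well (−6.53, adjusted p = 2.73e-05), but it had not been raised on day 1 and was below stem cells on day 4. MIXL1, a homeobox gene of the streak and of early endoderm, had 15.8, 154 and 309 CPM on day 3, against 1220, 1213 and 1157 CPM on day 1 (−2.91, adjusted p = 0.0381), and its call was lost when any library but replicate 4 of day 3 was left out (adjusted p 0.0785 to 0.109). EVX1, chosen after its values were seen, fell by 3.98 on the log2 scale and did not pass without replicate 2 or replicate 4 of day 3 (adjusted p = 0.0589 and 0.0535).

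Residual streak expression differed between genes on day 4. T averaged 1.59 ± 0.855 CPM on day 4 and 0.504 ± 0.128 CPM on day 0 (SD, n = 3 each), and CDX2 averaged 1.03 ± 1.12 CPM on day 4 and 0.107 ± 0.0508 CPM on day 0. Both were above stem cells (adjusted p = 0.0344 and 0.0302) and far below their day 1 levels. MSGN1, CDX1 and FGF4 did not pass between day 4 and day 0. The streak genes that did not pass the test included EOMES and GSC, described above, and NODAL, the ligand that activin A stands in for. NODAL had 2.49, 113 and 47.1 CPM on day 3, against 492, 461 and 282 CPM on day 1, lower in every day 3 library without passing the test (adjusted p = 0.0788). MESP1 and TBX6, factors of nascent mesoderm, did not pass (log2 fold changes −0.61 and −0.58). The 3 streak-list genes that rose were LHX1, FGF17 and CYP26A1. LHX1, a homeobox gene of the anterior streak, had 68.3, 271 and 509.5 CPM on day 3, against 83.3, 61.5 and 58.04 CPM on day 1, and the ranges overlapped. CYP26A1, which breaks down retinoic acid, had 429, 1576 and 1574 CPM on day 3, against 40.4, 30.8 and 48.2 CPM on day 1 (4.91, SE 0.64, adjusted p = 9.88e-05). Its call held without any of the 6 libraries. LHX1 lost its call without any library but replicate 1 of day 3 (adjusted p 0.0512 to 0.133), and FGF17 likewise (adjusted p 0.0732 to 0.149).

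Many genes induced by Wnt signalling fell. In canonical Wnt signalling, ligands bind Frizzled and LRP receptors, beta-catenin accumulates and acts through TCF and LEF factors, and the targets include negative feedback genes. Of 20 feedback and response genes, 11 fell, none rose (12 and none with DESeq2) and the median was −2.10, and all 11 were lasting losses. The count was 10 to 12 when each library was left out. SP5, a zinc finger factor directly induced by Wnt, had 75.04, 18.8 and 82.98 CPM on day 3, against 479.5, 243 and 365 CPM on day 1 (−2.62, SE 0.59, adjusted p = 0.00546). AXIN2, a scaffold of the beta-catenin destruction complex, had 60.6, 105 and 56.9 CPM on day 3, against 384, 435 and 223 CPM on day 1 (−2.23, SE 0.37, adjusted p = 0.000706). Both were several-fold lower in every day 3 library. APCDD1, a membrane inhibitor of Wnt, had 8.18, 5.77 and 3.25 CPM on day 3, against 87.7, 67.5 and 68.03 CPM on day 1 (−3.70, adjusted p = 2.98e-05). Among genes chosen after their values were seen, NKD1, which restrains Dishevelled, fell by 2.16 on the log2 scale (adjusted p = 0.00114). SP5, AXIN2 and NKD1 were nevertheless above stem cells on day 4, with log2 fold changes of day 4 minus day 0 of 6.17, 1.46 and 3.92.

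The secreted inhibitors of the pathway split. DKK1, which blocks the LRP receptors, had 552, 218 and 76.96 CPM on day 3, against 3031, 3154 and 2775 CPM on day 1 (−3.40, SE 0.76, adjusted p = 0.00526). DKK4 of the same family had 2.87, 34.6 and 5.78 CPM on day 3, against 1158, 1039 and 1791 CPM on day 1 (−6.53, adjusted p = 0.000578). Both Dickkopf genes were lower in every day 3 library. SFRP1, a decoy that binds Wnt ligands, had 1145, 1115 and 437 CPM on day 3, against 26.7, 31.96 and 28.5 CPM on day 1 (4.95, SE 0.54, adjusted p = 2.46e-05). FRZB, another decoy, had 78.5, 153 and 17.5 CPM on day 3, against 3.66, 4.49 and 3.82 CPM on day 1 (4.38, adjusted p = 0.000996). The decoys were higher in every day 3 library. Of 13 secreted antagonists tested, 5 rose and 3 fell. SFRP1 averaged 1274 ± 252 CPM on day 0 (SD, n = 3) and so had dipped on day 1, whereas FRZB averaged 5.17 ± 4.29 CPM on day 0 and was an endoderm gain.

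Ligands and receptors also exchanged. Among 16 Wnt ligands tested, 4 fell and 4 rose, and all 4 that fell were lasting losses. WNT3A, a canonical ligand of the posterior streak, had 0.0544, 0 and 0.194 CPM on day 3, against 6.74, 3.701 and 6.55 CPM on day 1 (−6.07, adjusted p = 0.000679). WNT5A, which acts mostly outside the canonical pathway, had 34.4, 13.2 and 25.2 CPM on day 3, against 150.4, 173 and 149 CPM on day 1 (−2.70, adjusted p = 0.000583), and WNT5B fell too (−4.66, adjusted p = 0.000174). All day 3 libraries of the 3 genes were below day 1. WNT4 had 9.04, 29.7 and 90.4 CPM on day 3, against 0.194, 0.264 and 0.3802 CPM on day 1 (7.24, adjusted p = 0.00306), and WNT9B rose by 4.10 (adjusted p = 0.0059). Of 24 receptors and modulators, 9 rose and 3 fell. The receptor FZD10 had 3.03, 0.1201 and 0.5097 CPM on day 3, against 24.3, 11.4 and 16.1 CPM on day 1 (−3.80, adjusted p = 0.00776), and RSPO3, a secreted enhancer of Wnt signalling, fell by 3.78 on the log2 scale (adjusted p = 0.00897). The receptor FZD5 had 311, 855 and 154 CPM on day 3, against 15.1, 13.8 and 19.7 CPM on day 1 (4.77, adjusted p = 0.000235), and FZD8 rose by 2.75. FZD7 had 347, 1157 and 958 CPM on day 3, against 105, 100 and 104 CPM on day 1 (2.99, adjusted p = 0.000376), and did not pass between day 4 and day 0, unlike FZD5 and FZD8, which were above stem cells on day 4. PORCN, the acyltransferase that Wnt ligands need for secretion, had 41.3, 33.9 and 24.5 CPM on day 3, against 4.604, 3.495 and 4.89 CPM on day 1 (2.94, adjusted p = 2.38e-05).

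The DNA-binding partners of beta-catenin changed as well, in genes chosen after their values were seen except LEF1. TCF7 had 15.7, 9.43 and 12.01 CPM on day 3, against 98.7, 81.7 and 88.8 CPM on day 1 (−2.86, adjusted p = 3.22e-05). TCF7L1, known mainly as a repressor of Wnt targets, had 106, 80.4 and 119 CPM on day 3, against 9.93, 6.99 and 8.11 CPM on day 1 (3.61, SE 0.28, adjusted p = 1.79e-06). TCF7L2 had 123, 86.9 and 80.3 CPM on day 3, against 15.8, 16.9 and 15.7 CPM on day 1 (2.58, adjusted p = 4.08e-05). The libraries of the 2 days did not overlap in any of these 3 genes. TCF7L1 and TCF7L2 averaged 123 ± 17.1 and 127 ± 35.8 CPM on day 0 (SD, n = 3 each) and did not pass between day 4 and day 0. LEF1 had 58.2, 5.11 and 19.8 CPM on day 3, against 106, 83.4 and 78.9 CPM on day 1, lower in every day 3 library without passing (adjusted p = 0.123), and it passed without replicate 1 of day 3 (adjusted p = 0.0279).

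The promoters of 4 of the genes that fell carry the letters CTTTGA or, read on the other strand, TCAAAG, the core that TCF and LEF factors recognise. They are shown with the promoter of CER1, a gene that rose, which has no match; these genes were chosen after the motif search. Each line gives the 250 bases before the annotated start, 5′ to 3′ on the gene's strand, from RefSeq on GRCh38.p14, with matches in capitals. Where a gene had more than 1 start, as T did, the starts were ranked by number of matches and the first is shown. The 6-letter core was found on either strand, at any listed start, for 3687 of 27305 gene symbols in the RefSeq table (13.5%), so single matches are frequent. SP5 lies at chr2:170715087-170715336 on the plus strand, DKK1 at chr10:52314031-52314280 on the plus strand, T (TBXT in RefSeq, which lists 2 starts) at chr6:166167852-166168101 on the minus strand, MSGN1 at chr2:17816210-17816459 on the plus strand and CER1 at chr9:14722734-14722983 on the minus strand.
SP5: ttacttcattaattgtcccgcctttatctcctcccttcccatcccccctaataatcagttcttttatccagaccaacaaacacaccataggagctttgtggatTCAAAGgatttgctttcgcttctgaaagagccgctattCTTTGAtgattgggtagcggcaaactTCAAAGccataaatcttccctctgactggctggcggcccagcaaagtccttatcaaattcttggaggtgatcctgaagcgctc
DKK1: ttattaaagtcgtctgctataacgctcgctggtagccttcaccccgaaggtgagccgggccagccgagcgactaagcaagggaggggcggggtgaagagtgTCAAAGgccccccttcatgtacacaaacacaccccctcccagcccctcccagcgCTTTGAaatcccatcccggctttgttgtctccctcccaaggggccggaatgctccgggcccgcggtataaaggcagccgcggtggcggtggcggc
T: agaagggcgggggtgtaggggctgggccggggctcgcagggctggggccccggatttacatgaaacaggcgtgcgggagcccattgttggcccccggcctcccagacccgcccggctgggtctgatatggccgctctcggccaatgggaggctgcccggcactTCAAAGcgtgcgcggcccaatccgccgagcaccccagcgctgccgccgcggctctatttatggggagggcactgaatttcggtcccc
MSGN1: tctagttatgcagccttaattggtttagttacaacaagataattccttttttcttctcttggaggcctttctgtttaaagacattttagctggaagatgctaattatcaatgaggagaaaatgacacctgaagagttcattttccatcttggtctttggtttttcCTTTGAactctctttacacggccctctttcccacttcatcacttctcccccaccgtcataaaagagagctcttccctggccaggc
CER1: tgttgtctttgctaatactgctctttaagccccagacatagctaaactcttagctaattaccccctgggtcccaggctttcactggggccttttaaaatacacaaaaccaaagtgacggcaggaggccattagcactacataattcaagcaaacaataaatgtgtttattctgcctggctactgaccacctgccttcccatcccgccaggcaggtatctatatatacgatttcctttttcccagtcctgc
SP5 had 3 matches, DKK1 had 2, T had 1 and MSGN1 had 1. A match is a description of the letters and shows no binding, and no match says only that these letters are not in this window. No share over the classes of genes is given, because only 74.6% of the genes tested had a promoter in the table.

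Losses reached further genes raised with the streak. Of the 10 largest decreases among genes averaging 5 CPM or more whose days did not overlap, every gene was a lasting loss. Of all 1591 lower genes, 391 were. High day 1 levels favour both a large decrease and this class, so the count is a description. Besides T, CDX1, MSGN1 and DKK4 they included PCSK1, a convertase that processes prohormones, with 0.584, 0.2102 and 0.752 CPM on day 3, against 138, 167 and 96.8 CPM on day 1 (−8.00, adjusted p = 1.10e-06). CHRNA1, a muscle acetylcholine receptor subunit, fell by 8.77, TNFRSF9, a receptor of the tumour necrosis factor family, by 7.02, and KIAA1239 by 7.48 on the log2 scale. Among HOX genes, HOXB2 and HOXB3 rose, with HOXB2 at 18.7, 13.3 and 13.4 CPM on day 3, against 1.11, 0.617 and 0.579 CPM on day 1 (4.30, adjusted p = 1.36e-05), and HOXB3 higher by 2.01. Of 21 HOX genes tested, 4 rose and 4 fell.

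Signalling genes and metabolic enzymes were also among the lasting losses. FGF19, a secreted fibroblast growth factor, had 9.16, 3.03 and 7.69 CPM on day 3, against 102, 106 and 62.6 CPM on day 1 (−3.77, adjusted p = 0.00155). ALDH1A2, the embryonic enzyme that makes retinoic acid, had 0.462, 0.3304 and 0.534 CPM on day 3, against 10.7, 19.9 and 9.36 CPM on day 1 (−4.90, adjusted p = 8.93e-05). The enzyme of retinoic acid synthesis was thus lower and CYP26A1, the enzyme of its breakdown, higher in every day 3 library. LMO2, a cofactor of blood and endothelial precursors, fell by 4.57 on the log2 scale (adjusted p = 4.58e-06). ODC1, the first enzyme of polyamine synthesis and a gene chosen after its values were seen, had 412, 378 and 236 CPM on day 3, against 4786, 5345 and 3496 CPM on day 1 (−3.73, adjusted p = 4.97e-06).

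**Figure D4:**
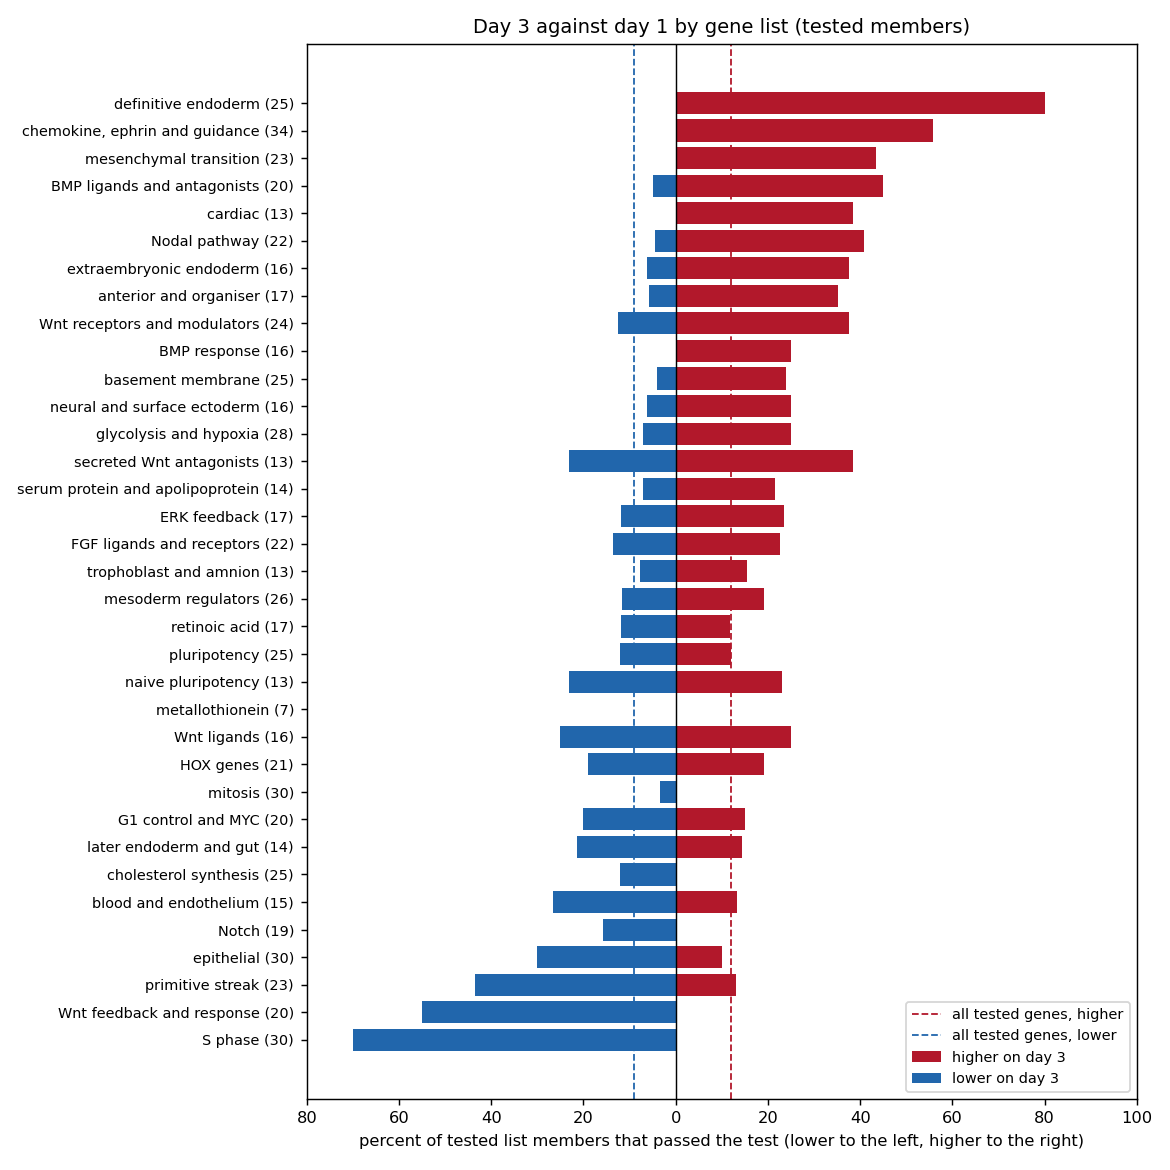
For each gene list, the number of genes that rose and that fell in the test of day 3 against day 1, as a percentage of its genes tested, with dashed lines at 11.9% and 9.14% for all genes. The definitive endoderm list is mostly higher and holds no lower gene, and the Wnt feedback and S phase lists hold lower genes and no higher gene.

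Endoderm genes rose broadly. Of 25 definitive endoderm genes, 20 rose, none fell (20 and none also with DESeq2) and the median log2 fold change was 2.87, and 18 of the 20 were above stem cells on day 4. The count that rose was 16 to 20 when each library was left out. Of all 2071 higher genes, 1377 were above stem cells on day 4, the share to set beside such counts here and below. PRDM1, a transcriptional repressor found in endoderm and chosen after its values were seen, rose by 4.15 (adjusted p = 8.27e-05). GATA4 had 221, 253 and 342 CPM on day 3, against 95.4, 64.4 and 50.8 CPM on day 1 (1.95, SE 0.40, adjusted p = 0.00277). GATA4 averaged 1.72 ± 0.641 CPM on day 0 (SD, n = 3), so it was already well above stem cells on day 1, while SOX17 was near its stem cell level on day 1 (0.844 ± 0.157 CPM on day 0). GATA6 had 143, 672 and 788 CPM on day 3, against 231, 248 and 218 CPM on day 1, and did not pass (adjusted p = 0.147), with replicate 1 below all day 1 libraries and replicates 2 and 4 above them. Without replicate 1 of day 3 it passed (adjusted p = 0.0383). HHEX, a homeobox gene of anterior endoderm, had 6.68, 45.3 and 3.08 CPM on day 3, against 0.804, 1.76 and 0.706 CPM on day 1 (4.08, adjusted p = 0.0107), and did not pass without replicate 2 of day 3 or replicate 1 or 4 of day 1 (adjusted p = 0.0828, 0.0529 and 0.0510).

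Surface receptors used to sort definitive endoderm rose with these factors. CXCR4, the receptor of the chemokine CXCL12, had 36.5, 159 and 42.8 CPM on day 3, against 7.52, 6.08 and 5.99 CPM on day 1 (3.61, SE 0.66, adjusted p = 0.00139). KIT, the receptor of stem cell factor, had 272, 337 and 112 CPM on day 3, against 22.6, 26.9 and 32.2 CPM on day 1 (3.14, SE 0.51, adjusted p = 0.000619). CXCR7, a scavenger of CXCL12 now named ACKR3, rose by 4.68 (adjusted p = 0.000937). Every day 3 library of these genes lay above every day 1 library, with replicate 2 highest in each. Anterior genes were less even. OTX2, a head homeobox gene, had 309, 757 and 447 CPM on day 3, against 69.4, 89.1 and 48.6 CPM on day 1 (2.87, adjusted p = 0.00061). The log2 fold change of CER1, with the values given above, was 2.74 (adjusted p = 0.0095), and it did not pass without replicate 2 of day 3 (adjusted p = 0.0580). Of 17 anterior and organiser genes tested, 6 rose and 1 fell, with 2 higher without replicate 2 of day 3 and 3 without replicate 1 or replicate 4 of day 1. LEFTY1, an inhibitor of Nodal, had 0.7201, 253 and 29.8 CPM on day 3, against 5.74, 2.41 and 7.803 CPM on day 1, and did not pass in edgeR (adjusted p = 0.104) but did in DESeq2 (adjusted p = 0.0378).

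The 10 largest increases under the same limits were all endoderm gains, as were 1377 of all 2071 higher genes. RTL1, a retrotransposon-derived imprinted gene, had 24.6, 31.03 and 37.4 CPM on day 3, against 0.0555, 0.0294 and 0.145 CPM on day 1 (8.55, SE 0.64, adjusted p = 1.42e-06). It overlaps an antisense transcript, so its level is uncertain without a stated strand setting. ANGPT2, a ligand of the endothelial receptor TIE2, had 95.3, 284 and 163 CPM on day 3, against 0.8598, 0.822 and 1.72 CPM on day 1 (7.31, adjusted p = 5.58e-05). CSF3R, the receptor of granulocyte colony-stimulating factor, had 14.8, 12.6 and 19.6 CPM on day 3, against 0.0832, 0 and 0.181 CPM on day 1 (7.36, adjusted p = 5.70e-05), where 0 in replicate 2 of day 1 allows up to 0.0441 CPM. All day 3 libraries of these genes were above all day 1 libraries, as the limits for naming them required. DGKB, a diacylglycerol kinase, rose by 7.50, and KLHL6 and the prostaglandin receptor gene PTGFR rose by 7.56 and 7.34 with wide spread, since KLHL6 had 1.62, 84.2 and 19.8 CPM and PTGFR 0.734, 34.3 and 5.07 CPM on day 3. Among genes chosen after their values were seen, CCKBR, a receptor of gastrin and cholecystokinin, had 264, 482 and 360.3 CPM on day 3, against 3.19, 3.58 and 6.86 CPM on day 1 (6.34, adjusted p = 7.51e-06). ERBB4, a receptor of neuregulins and likewise chosen after its values were seen, had 74.4, 1624 and 136 CPM on day 3, against 2.63, 4.11 and 6.95 CPM on day 1 (7.06, adjusted p = 0.000637).

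Guidance and matrix genes were among the gains. Of 34 chemokine, ephrin and guidance genes, 19 rose and none fell (21 and 1 with DESeq2, and 1 lower also without replicate 1 or replicate 4 of day 3), with a median of 1.63, and 16 of the 19 were above stem cells on day 4. The count was 17 to 20 when each library was left out. NTN4, a netrin of basement membranes, had 72.5, 241 and 167 CPM on day 3, against 1.803, 2.26 and 3.11 CPM on day 1 (6.06, SE 0.46, adjusted p = 1.43e-06). SEMA6D, a transmembrane semaphorin, had 80.6, 98.2 and 114 CPM on day 3, against 1.55, 1.41 and 1.43 CPM on day 1 (6.06, SE 0.44, adjusted p = 1.10e-06). SEMA3E and SLIT3, secreted guidance proteins, rose by 3.89 and 4.22. Among receptors of such ligands chosen after their values were seen, NRP2 rose by 2.60, PLXNA2 by 2.37, EPHB2 by 2.93 and UNC5B by 3.89.

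Of 23 genes of the mesenchymal transition, 10 rose and none fell, with a median of 0.95, and 1 fell with DESeq2 and 2 without replicate 4 of day 3. COL5A2, a fibrillar collagen chain, had 3449, 7922 and 3815 CPM on day 3, against 74.7, 128 and 91.2 CPM on day 1 (5.69, SE 0.42, adjusted p = 1.10e-06). TNC, the matrix protein tenascin C, had 742, 481 and 1034 CPM on day 3, against 84.2, 84.9 and 76.7 CPM on day 1 (3.20, adjusted p = 7.13e-05). FN1, fibronectin, had 2443, 1441 and 854 CPM on day 3, against 370.4, 365 and 361 CPM on day 1 (2.11, adjusted p = 0.00409). None of these overlapped between days. The repressor ZEB1, a driver of the transition, rose by 2.33 (adjusted p = 0.00109), and N-cadherin, CDH2, had 1520, 1688 and 1347 CPM on day 3, against 854, 839 and 835 CPM on day 1 (0.85, adjusted p = 0.0121). CDH2 averaged 95.2 ± 10.01 CPM on day 0 (SD, n = 3), so the larger step had come by day 1. Of 30 epithelial genes, 9 fell and 3 rose, a count that changed with the libraries used. Only 2 and 1 fell without replicate 1 or 2 of day 3, and 5, 4 and 3 without replicate 1, 2 or 4 of day 1. Each of these fits has fewer libraries, and in them the lower count over all genes also dropped, from 1591 to between 837 and 1059. GRHL2, an epithelial transcription factor, fell by 2.91 on the log2 scale (adjusted p = 0.00479). E-cadherin, CDH1, had 21.9, 8.50 and 122 CPM on day 3, against 266, 290.1 and 270.1 CPM on day 1 (−2.44, adjusted p = 0.0429), and lost its call without any library but replicate 4 of day 3 (adjusted p 0.0916 to 0.159). EPCAM did not pass (−0.81, adjusted p = 0.2).

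Components of BMP, Nodal and FGF signalling rose in part. Of 20 BMP ligands and antagonists, 9 rose and 1 fell, and all 9 were above stem cells on day 4. BMPER, which modulates BMP outside the cell, had 206, 50.5 and 65.1 CPM on day 3, against 3.02, 3.495 and 1.65 CPM on day 1 (5.30, adjusted p = 0.000172). The days did not overlap in BMPER, although the day 3 libraries differed widely among themselves. Of 16 BMP response genes, 4 rose and none fell, and 1 fell with DESeq2 or without replicate 1 of day 3. SMAD6, an inhibitory target of BMP signalling, had 63.3, 49.6 and 86.3 CPM on day 3, against 8.099, 6.49 and 9.18 CPM on day 1 (3.07, adjusted p = 0.00051). GATA3 rose by 3.62 (adjusted p = 0.00178). Of 22 Nodal pathway genes tested, 9 rose and 1 fell, with 5 higher without replicate 2 of day 1. SMAD3 and SMAD2, which carry the activin signal to the nucleus, rose by 1.55 and 1.34 (adjusted p = 0.00386 and 0.00447), and the inhibitory SMAD7 by 1.10. Of 22 FGF ligands and receptors, 5 rose and 3 fell, with 2, 3 and 2 higher without replicate 1, 2 or 4 of day 1. Among 17 ERK feedback genes, 4 rose and 2 fell. DUSP4, a phosphatase that switches ERK off, had 455, 874 and 974 CPM on day 3, against 48.5, 42.1 and 39.5 CPM on day 1 (4.14, SE 0.44, adjusted p = 1.74e-05).

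A dip on day 1, with every day 1 library below every day 0 library, was found in 518 of the 2071 higher genes. Over all genes tested the share was 14.1%. Low day 1 levels helped to select the higher genes, so a larger share among them is built in. Of the 518, 373 had no called increase over stem cells on day 4. FGFR2 had 129, 76.4 and 96.9 CPM on day 3, against 9.46, 9.84 and 9.92 CPM on day 1 (3.37, SE 0.28, adjusted p = 2.28e-06), with 80.3 ± 4.13 CPM on day 0 (SD, n = 3) and no call between day 4 and day 0. SFRP1, FZD7, TCF7L1 and TCF7L2, described above, followed the same course. ADM, the vasodilator peptide adrenomedullin, had 72.7, 24.8 and 62.6 CPM on day 3, against 8.29, 5.11 and 3.89 CPM on day 1 (3.21, adjusted p = 0.000445), and averaged 102 ± 37.8 CPM on day 0. PODXL, a sialomucin abundant on stem cells, had 3350, 4109 and 1017 CPM on day 3, against 155, 158 and 168 CPM on day 1 (4.14, adjusted p = 5.00e-05), with 2335 ± 382 CPM on day 0. By the comparison of day 4 with day 0 PODXL counted among the endoderm gains, although stem cells expressed it strongly. FOXA2, SEMA6D, DGKB and FZD5, described above, were endoderm gains that had also dipped on day 1. Their log2 fold changes of day 4 minus day 0 were 3.90, 2.10, 3.42 and 3.93, each smaller than that of day 3 minus day 1.

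Of 25 pluripotency genes, 3 were higher, 3 were lower and 19 did not pass, shares close to the 11.9% and 9.14% of all genes tested. SOX2 had 4.38, 3.81 and 11.4 CPM on day 3, against 1.69, 0.617 and 1.14 CPM on day 1 (2.50, adjusted p = 0.00551), and averaged 201 ± 97.9 CPM on day 0 (SD, n = 3). It was thus higher than on day 1 in every day 3 library and still far below stem cells, and day 4 was below day 0 (adjusted p = 5.62e-05). ZFP42, the stem cell gene REX1, had 24.3, 24.1 and 31.8 CPM on day 3, against 122, 127 and 81.9 CPM on day 1 (−2.04, adjusted p = 0.00509). The DNA methyltransferase gene DNMT3B fell by 1.11 on the log2 scale (adjusted p = 0.00972), and did not pass without replicate 2 of day 3 (adjusted p = 0.0581). NANOG did not pass, with 12.4, 37.9 and 83.7 CPM on day 3, against 63.6, 56.7 and 42.5 CPM on day 1.

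Genes of DNA replication fell. Of 30 S phase genes, 21 fell and none rose (22 and none with DESeq2), with a median of −1.51, and 2 of the 21 were lasting losses by the rule above. The count was 16 to 21 when each library was left out. RRM2, a subunit of ribonucleotide reductase, had 46.96, 67.5 and 34.9 CPM on day 3, against 344, 328 and 225 CPM on day 1 (−2.58, SE 0.41, adjusted p = 0.000538). CDC6, which loads the replicative helicase, had 28.3, 45.6 and 30.1 CPM on day 3, against 204, 223 and 174 CPM on day 1 (−2.53, SE 0.31, adjusted p = 6.69e-05). MCM4, a subunit of that helicase, had 139, 158 and 87.9 CPM on day 3, against 640.2, 759 and 569 CPM on day 1 (−2.35, adjusted p = 0.000696). The libraries did not overlap in any of them, and FEN1 and GINS2 fell by 2.54 and 2.29. CCNE1, cyclin E of the entry into S phase, had 8.93, 12.5 and 8.59 CPM on day 3, against 59.4, 60.7 and 57.99 CPM on day 1 (−2.57, adjusted p = 8.83e-05). Of 20 genes of G1 control and MYC, 3 rose and 4 fell (5 and 6 with DESeq2), with 5 higher without replicate 2 of day 3 and 2 lower without any single library but replicate 2 of day 3. CDKN1B, which encodes the cyclin-dependent kinase inhibitor p27, had 163, 136 and 71.6 CPM on day 3, against 18.1, 19.3 and 19.1 CPM on day 1 (2.71, adjusted p = 0.000751), and CDKN1C, which encodes the related p57, rose by 1.81 (adjusted p = 0.00569). Of 30 mitosis genes, 1 fell and none rose (2 and none with DESeq2, and 2 lower without replicate 2 of day 3), with a median of −0.33. The difference between the S phase and mitosis lists was not tested.

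**Figure D5:**
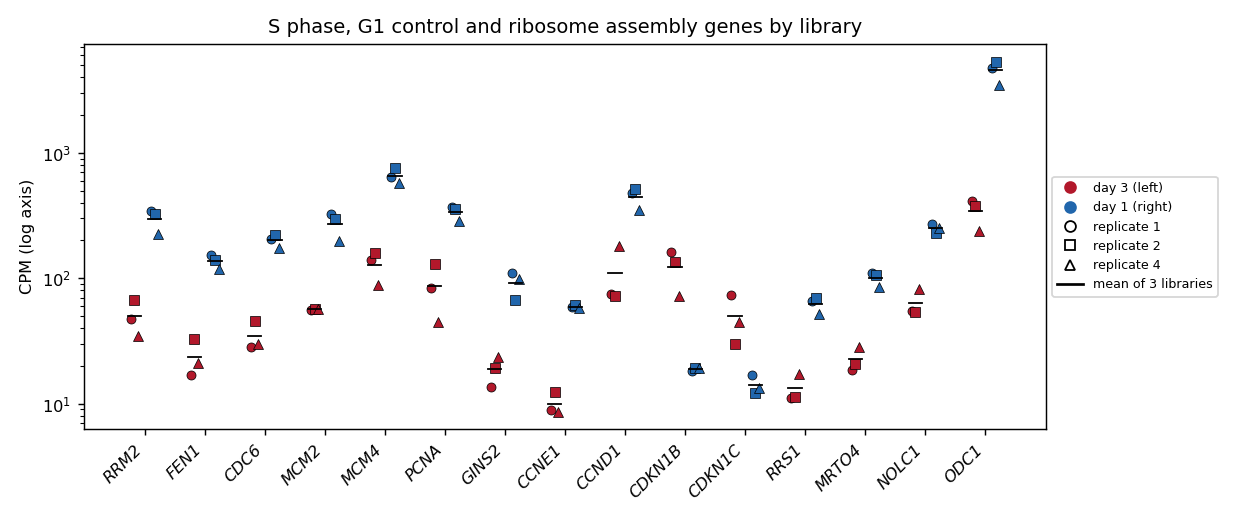
Levels in CPM (log axis) of S phase, G1 control and ribosome assembly genes and of ODC1, one point per library with day 3 left of day 1 and a bar at the mean of 3 libraries. The S phase genes, CCNE1 and CCND1 lie lower in every day 3 library, and CDKN1B and CDKN1C lie higher.

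Among single genes chosen after their values were seen, RRS1, which acts in ribosome assembly, had 11.1, 11.4 and 17.2 CPM on day 3, against 65.3, 69.6 and 51.6 CPM on day 1 (−2.23, adjusted p = 0.000124), and MRTO4, NOLC1 and RRP12, with roles in the same process, fell by 2.16, 1.98 and 1.85 on the log2 scale. None of the 4 had been raised on day 1. Of 28 glycolysis and hypoxia genes, 7 rose and 2 fell, with 4 higher without any one of the day 1 libraries and 0 lower without any single library but replicate 2 of day 3, where it was 1. VEGFA, the vascular growth factor, rose by 2.29 (adjusted p = 0.0043). Of 25 cholesterol synthesis genes, 3 fell and none rose in edgeR and in DESeq2, with 1 lower without replicate 2 of day 3 or replicate 2 of day 1. The share that fell was near the 9.14% of all genes tested. None of the 7 metallothionein genes tested passed in edgeR or DESeq2, none reached an unadjusted p under 0.05, and 2 were lower without replicate 4 of day 3. MT1X had 0.5299, 0.631 and 5.44 CPM on day 3, against 7.21, 3.94 and 5.14 CPM on day 1 (adjusted p = 0.269), and it passed without replicate 4 of day 3 (adjusted p = 0.00761). Metallothionein genes are close copies of each other, and their counts may be shared.

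Some markers of other cell types rose, in part within the class called endoderm gains, and others fell. Of all genes tested, 11.9% rose and 9.14% fell. The shares that rose in the blood and endothelial list and in the trophoblast and amnion list were near that of all genes. Of 26 mesoderm regulators, 5 rose, 4 of them in that class, and 3 fell. Their median log2 fold change was −0.59, and their summed level was 267 to 1053 CPM on day 3 and 366 to 403 CPM on day 1. HAND1 rose by 3.36 (adjusted p = 0.00245), and IRX3 had 58.1, 47.6 and 107 CPM on day 3, against 2.77, 2.08 and 2.01 CPM on day 1 (4.95, adjusted p = 1.33e-05). Of 13 cardiac genes tested, 5 rose, all in that class, and none fell (6 and none with DESeq2), and their summed level was 102 to 663 CPM on day 3, highest in replicate 4, and 45.5 to 64.4 CPM on day 1. Of 16 extraembryonic endoderm genes, 6 rose and 1 fell, with 2 higher without replicate 1 of day 1, and the summed level was 3171 to 3761 CPM on day 3 and 1354 to 1442 CPM on day 1. SPARC, a matrix protein of parietal endoderm that many other cells make, had 1084, 1000 and 1387 CPM on day 3, against 508, 443 and 466 CPM on day 1 (1.29, adjusted p = 0.00151), and the list shares GATA6 with definitive endoderm. Of 15 blood and endothelial genes tested, 2 rose and 4 fell, with 4 higher without replicate 2 of day 3, and the summed level was 90.8 to 444 CPM on day 3 and 297 to 360 CPM on day 1. Of 16 neural and surface ectoderm genes tested, 4 rose and 1 fell, with 0 lower without any single library, and the summed level was 247 to 297 CPM on day 3 and 360.9 to 438 CPM on day 1. Of 13 trophoblast and amnion genes tested, 2 rose and 1 fell, with 2 lower without replicate 4 of day 1, the summed level was 91.5 to 361 CPM on day 3 and 83.4 to 149 CPM on day 1, and ELF5, CGA and CGB5 had no count in any of the 6 libraries. SOX1, a neural marker, had 4, 2 and 0 counts on day 3 and none on day 1. The liver genes TTR and SERPINA1 had no count in any of the 6 libraries, and of 14 serum protein and apolipoprotein genes tested 3 rose and 1 fell, with 1 higher without replicate 2 of day 3 or any one of the day 1 libraries and 0 lower without any single library but replicate 2 of day 3. The part of other cell types in the gains was not tested.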

How the data were processed

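The data were 15 polyA-selected, directional bulk RNA-seq libraries of H9 cells, 3 for each of days 0 to 4, with RNA taken up in Trizol and purified on columns, per the labels' protocols. The build hg19 and TopHat2 2.0.14 are named in the submitters' processing notes. Which program counted reads, with what annotation and strand setting, is not given in the sources used here. The authors deposited 1 table of counts per gene symbol and library, whole numbers with no normalization. No value was odd, as when both mates of a pair are counted. Of 23398 entries, 44 identical copies were dropped and 8 were summed into a repeated symbol, leaving 23346 symbols, 2605 of them with no count. Columns were matched to samples by title. Total counts over the 15 libraries ran from 54723184 to 145857940, and 3 counts stood for 0.0204 to 0.0451 CPM in the day 3 and day 1 libraries; such limits cover counting error only.

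From the counts, edgeR 4.0.16 (limma 3.58.1, R 4.3.3) fitted a mean per day over all 15 libraries, which then shared an estimate of spread, with TMM scaling and genes filtered by filterByExpr by day (17401 kept). Day 3 was set against day 1, and day 4 against day 0, by the quasi-likelihood F-test with Benjamini-Hochberg adjustment over all 17401 genes, called at an adjusted p under 0.05. The biological coefficient of variation was 45.6%. The SE of a log2 fold change was taken from the F statistic. The scripts were tested on simulated counts for day 3 against day 1. There edgeR called 1% of genes made to differ 2-fold, and 51% where the difference made was 4-fold. DESeq2 called 9% and 74%, with 35 unchanged genes called in error, against 4 in edgeR. A gene that did not pass may therefore still have changed, even by 4-fold. DESeq2 1.42.0 was an alternative, beside other scalings, filters, a block for replicate number, the 6 libraries fitted alone, halved counts and each library left out. Python 3.11.15 and pandas 2.3.3 were used for tables.

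The 35 gene lists, the classes and the members named were chosen with earlier results of these data known, so a list's count and median are a description. Genes were named by a rule: the 10 largest increases and decreases averaging 5 CPM or more without overlap of the days, a set of stage markers, and up to 5 called members per list and direction (177 genes); a further 25 were chosen after their values were seen. A few of these genes are not reported here. The symbols SC5D and ACKR3 were looked up under the older names in the table. Promoters came from RefSeq on GRCh38.p14, not the authors' build, and were used for sequence only.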

Additional observations from a re-analysis of the deposited data

How the results depend on the processing

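No gene called here was called in the opposite direction under any alternative run, and of the 202 genes named, 149 were called in every alternative and 39 lost their call in at least 1. With DESeq2 in place of edgeR, 2737 genes were higher and 2041 lower, and 66 gains were below day 0 on day 4 instead of 31. Leaving out each of the 6 libraries gave 1246 to 2069 higher and 837 to 1425 lower genes, 263 to 357 lasting losses and 934 to 1386 endoderm gains, 297 to 652 gains not called between day 4 and day 0 and 15 to 41 called lower. Over the same fits, lower genes not raised on day 1 numbered 572 to 1063, and lower genes by day 4 against day 0 numbered 32 to 49 called higher, 278 to 547 not called and 527 to 832 called lower. Each of these fits has fewer libraries. The other scalings, filters and halved counts left the main counts within 1.5 times.

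Between day 3 and day 1, replicate numbers showed no clear pairing of the libraries. Deviations of same-numbered libraries correlated at −0.095, 0.155 and 0.136, and differently numbered ones at −0.301 to 0.22. Not every library correlated best with its own number. Pairs with days 0, 2 and 4 were not compared in this way, and some genes kept an order over several days. POU5F1 was highest in replicate 4 on days 0, 2, 3 and 4, though not on day 1. EOMES was lowest in replicate 1 on days 3 and 4. A pairing over all days is therefore not excluded. With the replicate number as a block, 2540 genes were higher and 2487 lower, so the higher share of calls was 50.5%, against 56.6% without the block. In that fit 72 gains were below day 0 on day 4, 1943 lower genes had not been raised on day 1, and 97, 939 and 1451 lower genes were called higher, not called and called lower between day 4 and day 0. NODAL, POU5F1, LEF1 and EPCAM, not called over all libraries without the block, passed as lower in the block fit (adjusted p = 0.0251, 0.000252, 0.0204 and 0.0283). The cause was not tested. LEFTY1 and LEFTY2 passed as higher with DESeq2 (adjusted p = 0.0378 and 0.0356), and LEFTY2 also in the fit of the 6 libraries alone (0.0324). POU5F1 without replicate 4 of day 3 (0.00766), and LEF1 and GATA6 without replicate 1 of day 3 (0.0279 and 0.0383), passed as well. EOMES and GSC did not pass in any setting run, given the spread between libraries, at total counts of at least 65534538 in the libraries of both days.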

Other observations

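Several genes with large gains were in none of the gene lists, and their day 3 libraries were uneven. The counts of the blood and endothelial list therefore leave out VWF, given below. STC1, the secreted hormone stanniocalcin and a gene chosen after its values were seen, had 80.0, 493 and 130.1 CPM on day 3, against 5.74, 4.73 and 5.36 CPM on day 1 (5.47, adjusted p = 8.37e-05). VWF, the von Willebrand factor of endothelial cells and likewise chosen after its values were seen, had 91.3, 81.5 and 19.5 CPM on day 3, against 0.887, 1.44 and 1.38 CPM on day 1 (5.70, adjusted p = 3.32e-05). In both genes every day 3 library was above every day 1 library, with replicate 2 highest for STC1 and replicate 4 lowest for VWF.

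Of 14 later endoderm and gut genes tested, 2 rose and 3 fell. The share that rose was near the 11.9% of all genes tested, of which 9.14% fell. HNF4A, a liver and gut factor, had 7.84, 38.6 and 0.874 CPM on day 3, against 0.2496, 0.294 and 0.272 CPM on day 1 (5.85, adjusted p = 0.00114). PAX9, a factor of the pharyngeal endoderm, had 8.61, 1.71 and 31.5 CPM on day 3, against 0.139, 0.441 and 0.507 CPM on day 1 (5.25, adjusted p = 0.00313). The highest day 3 library was replicate 2 for HNF4A and replicate 4 for PAX9. The members that fell were CDX2, described above, NKX6-1 (−6.56, adjusted p = 0.00204) and SOX9 (−2.50, adjusted p = 0.0177), which did not pass without replicate 4 of day 3 (adjusted p = 0.0577). From other lists, NPPA, the atrial natriuretic peptide of heart muscle, had 3.90, 7.27 and 53.4 CPM on day 3, against 0.444, 0.147 and 0.561 CPM on day 1 (5.79, adjusted p = 0.00283), and LHX2, a forebrain homeobox gene, had 3.79, 34.3 and 31.4 CPM on day 3, against 0.693, 0.646 and 1.96 CPM on day 1 (4.39, adjusted p = 0.00865). The summed level of the neural and surface ectoderm list, which holds LHX2, was nevertheless lower in every day 3 library than in every day 1 library.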
